A study of Mus musculus with 6 samples.

Results

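The genes described here code for 10 proteins at the core of the spliceosome. They are the U5 proteins *Prpf8*, *Snrnp200*, *Eftud2* and *Prpf6*, the U4/U6 proteins *Prpf31*, *Prpf3* and *Prpf4*, and the DEAH-box RNA helicases *Dhx16*, *Dhx38* and *Dhx8*. They were chosen by symbol, for their place in the splicing machinery, out of 12134 genes in the total RNA tables. Their entries in those tables reduced to 205 distinct introns, of which 198 were listed in all 4 total RNA libraries. In the long-read tables the same genes had 58 annotated transcripts.

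The cells were E14 mouse embryonic stem cells, an established line on the 129/Ola background, grown in serum with LIF. They were transfected by lipofection with an siRNA against *Son*, a nuclear speckle protein that takes part in splicing, or with a control siRNA, and RNA was taken 24 h later. The groups share the line, the medium and the transfection reagent, and no transgene or drug is named for either. Total RNA depleted of ribosomal RNA gave 2 control and 2 *Son* knockdown libraries, and polyadenylated RNA gave 1 Nanopore cDNA library of each kind. The labels do not say whether replicates came from separate cultures, so p-values measure the spread between these libraries, which may be technical. In bulk RNA, fewer cells of a type and less RNA per cell cannot be told apart.

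The U4/U6.U5 tri-snRNP is the pre-assembled particle that joins the spliceosome once U1 and U2 have marked an intron. U4 is paired to U6 in it and keeps U6 inactive, until the helicase encoded by *Snrnp200* unwinds the pair and the catalytic centre forms around the protein encoded by *Prpf8*. The DEAH-box helicases then act in turn: DHX16 prepares the first step, DHX38 remodels the complex between the steps, and DHX8 releases the finished mRNA. Inherited variants in several of the tri-snRNP genes, *PRPF31* among them, are known in people as causes of retinitis pigmentosa.

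The knockdown was measured first. *Son* stood at 281 and 312 CPM of spliced reads in the controls, against 94.6 and 102.4 CPM after knockdown, a log2 fold change of -1.61 (standard error 0.087, adjusted p = 3.72e-10 by edgeR's quasi-likelihood test). A spliced read here is a read split at the 5′ junction of an intron, and CPM scales its count to a common total of such reads over introns listed under a single gene. The total RNA libraries held 10556187 to 16012286 split reads at 5′ junctions, and the Nanopore libraries 3080426 reads in the control and 1874851 in the knockdown. Of 10 embryonic stem cell markers 9 were listed; *Sox2*, which has no intron, was not, and the level of the 9 summed to 1227 to 1249 CPM per intron in the controls and 1140 to 1239 in the knockdown, with 1 marker (*Tfcp2l1*) called more and 0 fewer by edgeR. Of 6 fibroblast markers 3 were listed, at 152 to 158 against 151 to 162, with the collagen genes *Col1a1* and *Col1a2* and *Lox* not listed. Of 6 markers of differentiated cells 2 were listed, at 3.45 to 4.17 against 3.09 to 4.32.

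The exon junctions that the results below turn on are shown here, because the bases at an exon's end are part of the 5′ splice site. Each sequence is the spliced mRNA, with 15 bases of exon on each side of the removed intron, read from the GENCODE M21 transcripts. Capitals mark the last bases of the upstream exon, for which AG is the common form. The first 3 belong to *Prpf31* and the others to the introns that passed the test.
Prpf31 intron 4: tagaaaatgagctGAacattatccacaagt
Prpf31 intron 5: atccgcacagtcaAGgagctgggcaacagc
Prpf31 intron 6: ctctactacccagGGgcagcagctgtcgga
Eftud2 intron 26: ttccaccattggcAGattgtcccaggcgat
Dhx38 intron 8: aggcaaatcaacgAGgacaatgagcgctgg
The exon before intron 4 of *Prpf31* ends in GA and that before intron 6 in GG, while the other 3 end in AG. Of the 8 tested introns of *Prpf31*, 5 follow an exon ending in AG. Whether exon ends relate to its change was not tested. Over the 196 tested introns of the 10 genes, 132 followed an exon ending in AG (67.3%), against 57.6% of all tested introns. Among all introns with lower splicing efficiency in the knockdown at an adjusted p under 0.05 by edgeR the share was 52.96%.

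Spliced RNA of *Prpf31* fell in the *Son* knockdown, and that of the other 9 genes did not change by the test. *Prpf31* encodes the U4 protein that holds U4/U6 and U5 together. It had 150.5 and 152.6 CPM in the controls, against 111.0 and 98.7 CPM in the knockdown, from 2345, 1591, 1619 and 1023 spliced reads. Both knockdown libraries were below both controls, by more than the spread within either group. The group means were 151.6 ± 1.46 CPM and 104.9 ± 8.69 CPM (SD, n = 2 each). On the log2 scale this was a change of -0.55 (standard error 0.0898), or 0.683 of the control level, with an adjusted p of 0.000265 by edgeR's quasi-likelihood test over all genes. Under the alternatives tried, leaving out each library in turn included, it lay between -0.63 and -0.48. Across all 9474 genes tested, 6.76% had fewer spliced reads in the knockdown at an adjusted p under 0.05 and 1.96% had more, so 1 gene in 10 lies close to that background.

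**Figure D1:**
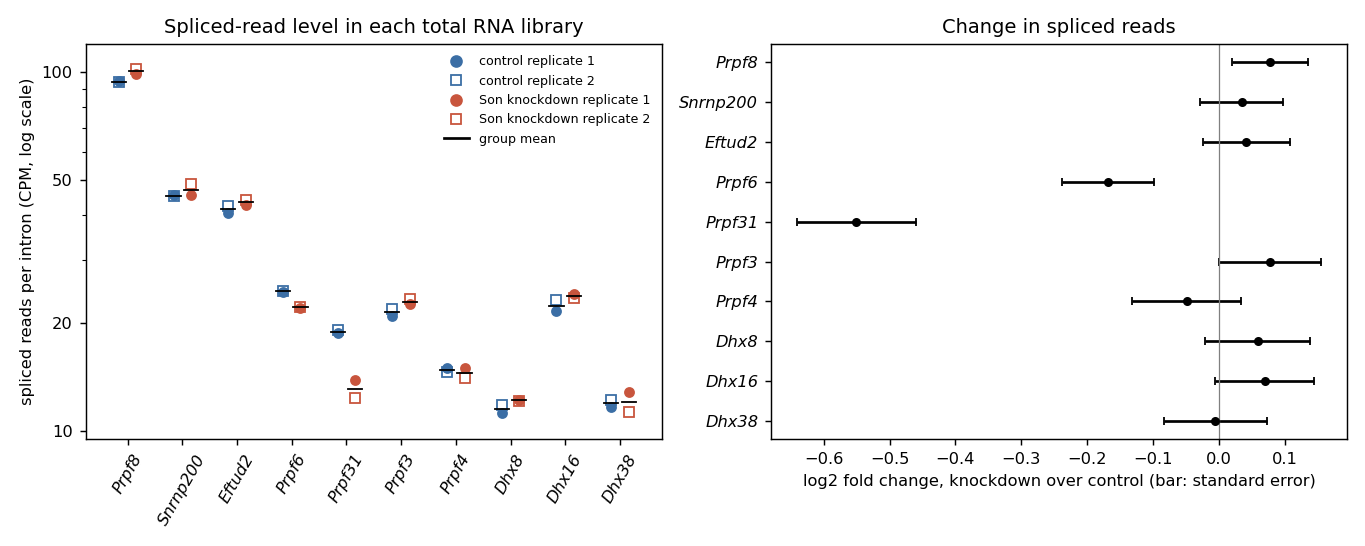
Left: spliced reads per intron (CPM, log axis) of the 10 genes in each total RNA library, with circles for replicate 1, squares for replicate 2, blue for control, red for *Son* knockdown and black lines for group means. Right: log2 fold change, knockdown over control, with its standard error; *Prpf31* lies at -0.55 and the other 9 genes lie within 0.2 of 0.

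The lower level was seen along most of the gene. *Prpf31* lies on chromosome 7 (ENSMUSG00000008373), and 8 of its introns were listed in all 4 libraries, against 13 in its main transcript Prpf31-201. Of those 8, 7 had split reads at the 5′ junction, and in 6 of the 7 both knockdown libraries had a lower CPM than both controls. These are the reads that were summed for the gene, so the introns are not separate support for its fall. The share of all introns with such a difference was not counted. Intron 4 had 38.6 and 41.1 CPM in the controls, against 28.5 and 29.4 CPM in the knockdown. Intron 5 had 39.1 and 41.3 CPM against 29.8 and 26.4 CPM. Intron 6 had 32.5 and 28.6 CPM against 20.7 and 19.7 CPM. All 3 lie next to each other in the 5′ part of the coding region, and in each of them the groups were apart. Further along, intron 11 went from 8.80 and 10.6 CPM to 5.55 and 3.86 CPM, and intron 13 went from 22.5 and 22.2 CPM to 18.4 and 15.6 CPM. The log2 ratios of the group means over the 7 introns ran from -1.05 at intron 11 to -0.26 at intron 8, the single intron of the 7 whose groups overlapped, and these ratios were not tested intron by intron. The eighth intron, intron 2 of Prpf31-203, had 0 split reads at its 5′ junction in every library and split reads at its 3′ junction only.

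Unspliced reads over *Prpf31* took a larger share in the knockdown, without passing the test over all genes. Splicing efficiency is the share of junction reads that are split, so the unsplit share is what is left. Summed over its introns, 3.81% and 4.07% of the junction reads of *Prpf31* were unsplit in the controls, against 6.16% and 6.07% in the knockdown. The 2 groups did not overlap, and their distance was larger than the spread within either. As a log2 odds ratio of unsplit reads, where a value above 0 means lower splicing efficiency in the knockdown, this was 0.67 (standard error 0.254, adjusted p = 0.100 by edgeR's quasi-likelihood test). The unadjusted p by the same test was 0.00836, the smallest among the 10 genes. Unsplit reads numbered 198 and 144 in the controls, against 224 and 144 in the knockdown. Split reads at both junctions numbered 4993 and 3392 against 3410 and 2228. Fewer split reads alone raise the unsplit share, so the share is not separate from the fall in spliced reads given above.

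The intron values of *Prpf31* showed where those reads lay. Intron 4 (GRCm39 chr7:3635751-3636302, 552 nt) had a splicing efficiency of 0.971 and 0.978 in the controls, against 0.935 and 0.965 in the knockdown. Intron 5 (chr7:3636401-3637122, 722 nt) had 0.993 and 0.991 against 0.981 and 0.984. Intron 6 (chr7:3637230-3637691, 462 nt) had 0.960 and 0.946 against 0.907 and 0.904. In each of these 3 introns both knockdown libraries lay below both controls, with unadjusted p-values of 0.0176, 0.0292 and 0.00788. After adjustment over all introns by Benjamini-Hochberg in edgeR they were 0.312, 0.406 and 0.2004, so none of the 8 introns passed. The odds ratio was above 0 in 6 of the 8 introns, and the median was 0.71 on the log2 scale. Introns 12 and 13, at the 3′ end, had values of -0.24 and -0.14. The library values of intron 8 were far apart, at 0.966 and 0.581 within the knockdown, on 56 and 18 split and 2 and 13 unsplit reads.

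**Figure D2:**
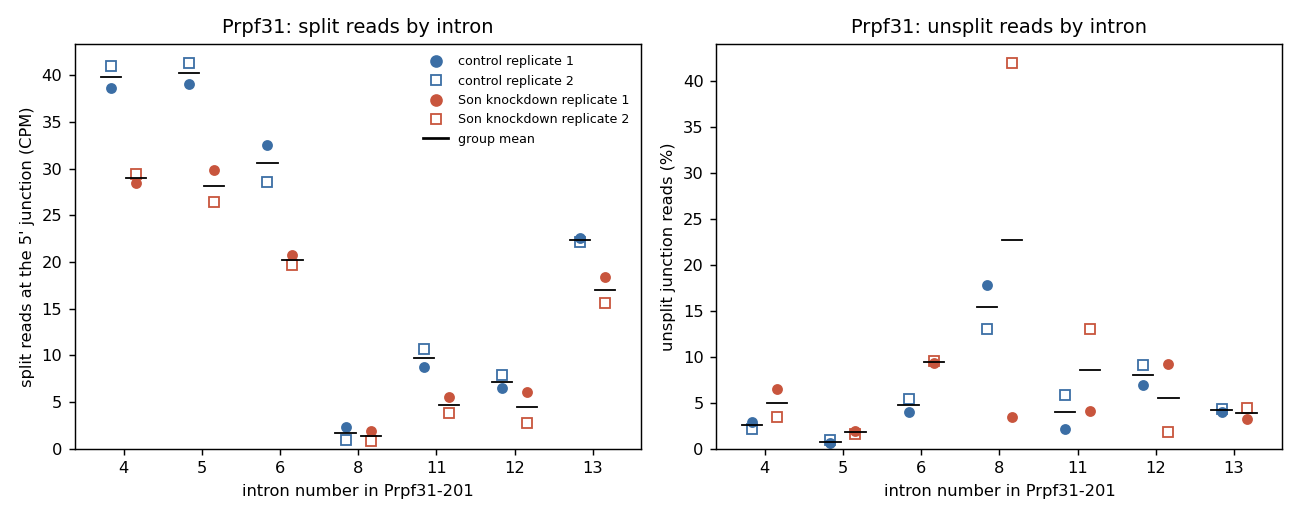
*Prpf31*, by intron of Prpf31-201 along the horizontal axis: split reads at the 5′ junction (CPM, left) and the share of junction reads that are unsplit (percent, right), with a point per total RNA library and black lines for group means. The knockdown points lie below the control points in 6 of the 7 introns on the left, and the unsplit share is higher in both knockdown libraries at introns 4, 5 and 6; intron 2 of Prpf31-203 is not drawn.

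The reads of *Prpf31* carry a limit. The annotated antisense gene *Gm15927* lies over 7 of its 8 introns, and the strand setting of the read counts is not given in the sources used here, so reads from the strands cannot be told apart. *Gm15927* was not among the genes listed in the total RNA tables and had 0 transcripts in the long-read tables, and its part in the values was not tested.

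None of the 4 genes for U5 proteins changed its spliced reads by the test. Per intron, so that genes with different numbers of introns can be set side by side, *Prpf8* was the most abundant of the 10. Encoding the scaffold of the catalytic centre, it had 94.3 and 93.9 CPM per intron in the controls, against 99.0 and 102.4 in the knockdown. *Snrnp200*, the helicase that unwinds U4 from U6, had 45.6 and 45.2 CPM per intron against 45.5 and 48.8. *Eftud2*, a GTPase that binds next to it, had 40.7 and 42.5 CPM per intron against 42.6 and 44.2. In *Prpf8* and *Eftud2* both knockdown libraries were above both controls, and in *Snrnp200* the groups overlapped. The log2 fold changes were 0.08 for *Prpf8*, 0.03 for *Snrnp200* and 0.04 for *Eftud2*, with standard errors of 0.0579, 0.063 and 0.0662. Their adjusted p-values by edgeR were 0.517, 0.834 and 0.806.

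*Prpf6*, whose product bridges U5 and U4/U6, had the next lowest fold change after *Prpf31*. It stood at 24.49 and 24.53 CPM per intron in the controls, against 22.10 and 22.14 in the knockdown, so the groups were apart and the replicates nearly equal. The log2 fold change was -0.17 (standard error 0.0698, adjusted p = 0.169 by edgeR), with an unadjusted p of 0.0252. Its adjusted p was 0.0257 without knockdown replicate 1 and 0.0176 without knockdown replicate 2, both from edgeR fits in which the lone library is taken to vary like the controls. Without the first of these libraries *Prpf8* also passed, at a log2 fold change of 0.11 and an adjusted p of 0.0124 by edgeR, while over all genes the number called rose from 826 to 2193.

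*Prpf3* and *Prpf4*, whose products sit on U4/U6 together, did not change by the test. *Prpf3* had 21.0 and 21.9 CPM per intron in the controls, against 22.6 and 23.3 in the knockdown, a log2 fold change of 0.08 (standard error 0.0777, adjusted p = 0.658 by edgeR). *Prpf4* had 15.0 and 14.6 CPM per intron against 14.9 and 14.0, a log2 fold change of -0.05 (standard error 0.0829, adjusted p = 0.817 by edgeR). Whether the change in *Prpf31* differs from theirs was not tested.

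The helicases of the later steps did not change by the test either. *Dhx16* had 21.6 and 23.2 CPM per intron in the controls, against 24.2 and 23.4 in the knockdown. *Dhx38* had 11.7 and 12.2 against 12.8 and 11.3, and *Dhx8* had 11.3 and 11.8 against 12.2 and 12.1. Their log2 fold changes were 0.07, -0.01 and 0.06, with adjusted p-values of 0.685, 0.980 and 0.761 by edgeR. The 2 *Dhx38* knockdown libraries lay on either side of the controls.

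Taken by level in the controls, the order was *Prpf8* (94.1 ± 0.308 CPM per intron), *Snrnp200* (45.4 ± 0.253), *Eftud2* (41.6 ± 1.30), *Prpf6* (24.5 ± 0.0341), *Dhx16* (22.4 ± 1.12), *Prpf3* (21.4 ± 0.616), *Prpf31* (18.9 ± 0.183), *Prpf4* (14.8 ± 0.251), *Dhx38* (11.95 ± 0.397) and *Dhx8* (11.5 ± 0.380; SD, n = 2 each). The libraries of *Dhx16* overlapped those of *Prpf3*, and those of *Dhx38* overlapped those of *Dhx8*. The measure averages all listed introns of a gene, those with few split reads included. In *Prpf31* the control means were 39.9 CPM at intron 4 and 40.2 at intron 5, but 1.67 at intron 8. In the control Nanopore library the order was different, with *Dhx16* (191.5 CPM) above *Snrnp200* (102.9 CPM). The order given here thus belongs to this measure. After knockdown *Prpf31* stood at 13.1 ± 1.09 CPM per intron, below *Prpf4* at 14.5 ± 0.656, with the intron of 0 CPM counted in its average. The place of *Prpf31* in either order was not checked without that intron. *Prpf6*, at 22.1 ± 0.0353, stood below *Dhx16* at 23.8 ± 0.509 and *Prpf3* at 22.9 ± 0.523, in place of above them. *Dhx8*, at 12.2 ± 0.0863, and *Dhx38*, at 12.1 ± 1.06, again had overlapping libraries.

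Counted without a test, both knockdown libraries were below both controls in 2 of the 10 genes, *Prpf6* and *Prpf31*, against 22% of all genes, and above in 5, against 27.5%. The median log2 fold change was 0.04 over the 10 genes and 0.01 over all genes. The count below lay near its share over all genes and the count above was larger than its share, in genes whose fold changes did not pass the test.

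Splicing efficiency summed per gene was high in all 10 genes and passed the test in none of them. In the controls it ran from 0.933 ± 0.0127 in *Prpf3* to 0.987 ± 0.00136 in *Eftud2* (SD, n = 2 each). In the main edgeR fit 0 of the 10 genes were called, and 1 had an unadjusted p under 0.05 (*Prpf31*). With a replicate block *Prpf6* and *Prpf31* passed, as given at the end. DESeq2 also called 0 of the 10. Limma called 0 of all 9370 genes, so its 0 here carries no information. Over all 9370 genes tested 6.98% were called lower in the knockdown and 0.128% higher, 654 and 12 genes, which became 643 and 99 when split and unsplit reads were scaled separately. With that scaling the median over all genes went from 0.09 to -0.05 on the log2 odds scale.

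The gene values differed little between groups outside *Prpf31*. Unsplit reads of *Prpf6* were 1.70% and 2.40% in the controls, against 2.18% and 3.31% in the knockdown, a log2 odds ratio of 0.43 (standard error 0.234, adjusted p = 0.449 by edgeR), with overlapping groups. For *Dhx16* they were 4.10% and 4.81% against 4.90% and 5.67%, with both knockdown libraries higher. For *Dhx8* they were 3.79% and 4.04% against 3.004% and 3.49%, with both knockdown libraries lower. *Prpf31* and *Dhx16* were thus the 2 genes with lower efficiency in both knockdown libraries, against 27.1% of all genes, and *Dhx8* the 1 gene with higher efficiency, against 11.2%. The log2 odds ratios were 0.26 for *Dhx16* and -0.29 for *Dhx8*, with adjusted p-values of 0.806 and 0.801 by edgeR. In *Prpf8*, *Snrnp200*, *Eftud2*, *Prpf3*, *Prpf4* and *Dhx38* the groups overlapped and the log2 odds ratios lay between -0.19 and 0.19; those of *Prpf8*, *Snrnp200* and *Eftud2* turned negative when split and unsplit reads were scaled separately.

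**Figure D3:**
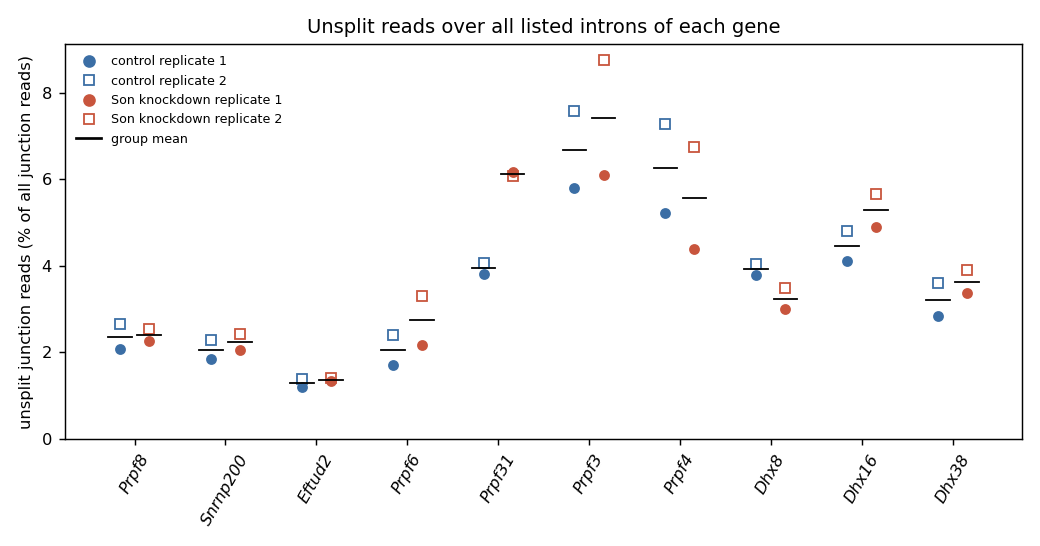
Share of junction reads that are unsplit (percent of all junction reads, summed over the listed introns) for each of the 10 genes, with circles for replicate 1, squares for replicate 2, blue for control, red for *Son* knockdown and black lines for group means. *Prpf31* moved from 3.81% and 4.07% to 6.16% and 6.07%, while *Prpf3* and *Prpf4* had the highest shares in the controls and a wide spread within groups. In *Prpf3* and *Prpf4* replicate 2 lay above replicate 1 in both groups.

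The introns of these genes are shorter, deeper covered and more fully spliced than most. Of 198 listed in all libraries, 195 interrupt coding sequence, 2 lie in 5′ UTRs (intron 1 of *Eftud2* and intron 1 of *Dhx38*) and 1 is in a *Prpf3* model with no coding sequence. The 196 introns that passed the read filter had a median length of 434 nt, from 76 to 9117 nt, against 1128 nt over all tested introns. Their median splicing efficiency in the controls was 0.971, against 0.933, and ranged from 0.740 at intron 2 of *Prpf3* to 0.998 in *Eftud2*. A median intron had 628 junction reads per library, against 198. Exon GC content within 100 nt of the intron had a median of 53%, against 50.5% for all tested introns. For all introns with lower efficiency in the knockdown at an adjusted p under 0.05 by edgeR it was 56.5%.

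Intron by intron, 1 of the 196 had lower and 1 had higher splicing efficiency in the knockdown at an adjusted p under 0.05 by edgeR. That is 0.51% of them in each direction, while over all 63309 tested introns 1.76% were called, 1.71% lower and 0.0442% higher. With 1 intron a direction, no order is read from these shares. At an unadjusted p under 0.05 the 10 genes had 16 introns lower (8.16%, against 8.11% of all introns) and 8 higher (4.08%, against 1.61%). The odds ratio was above 0 in 114 introns (58.2%, against 58% of all), and the median log2 odds ratio was 0.12 in both. Both knockdown libraries lay below both controls in 41 introns (20.9%, against 24.3%) and above in 26 (13.3%, against 13.1%). The share lower at an unadjusted p, the sign of the odds ratio, its median and the share above both controls lay near the background, while the share higher at an unadjusted p was larger.

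Over all genes, calls of lower efficiency were most frequent among short introns. Among all tested introns of 37 to 283 nt, 6.52% were called lower, against 0.111% to 1.27% in the 4 longer ranges, and the median log2 odds ratio was 0.43. The 10 genes had 72 introns in that range, of which 1 was called lower, with a median of 0.09. In the next range, 284 to 790 nt, they had 66 introns with a median of 0.19, against 0.15 for all introns there, and 1 was called higher. In the 3 longer ranges they had 27, 20 and 11 introns, with no call by edgeR. Their median log2 odds ratios there were 0.39, -0.25 and -0.01, against 0.06, 0.04 and 0.02 for all introns of those ranges. *Prpf8* alone had 6 tested introns under 100 nt, of which intron 9 (83 nt) had a log2 odds ratio of 0.59 and intron 6 (80 nt) one of -0.72.

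**Figure D4:**
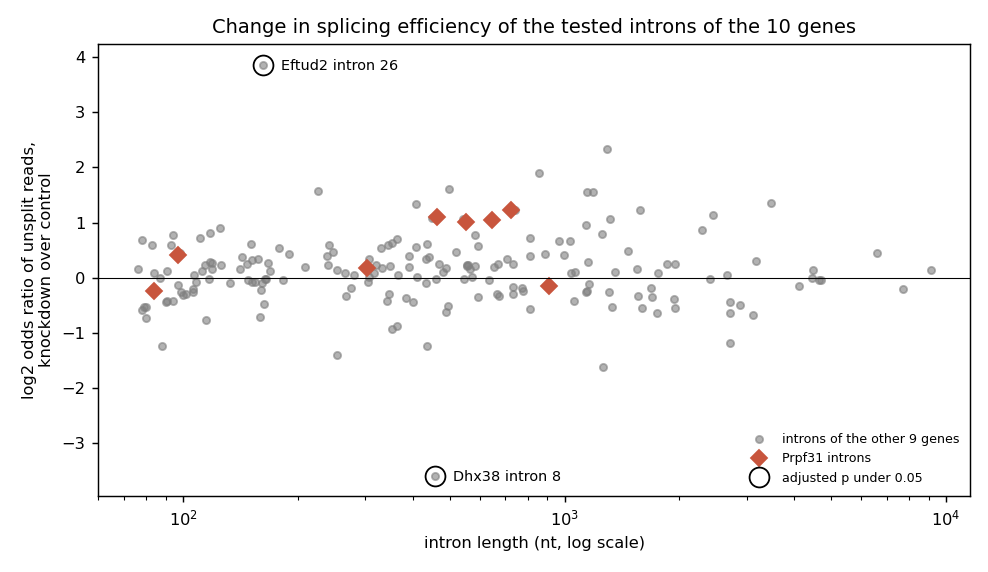
Log2 odds ratio of unsplit reads, knockdown over control, against intron length (nt, log axis) for the 196 tested introns of the 10 genes; red diamonds are *Prpf31* introns, grey points those of the other 9 genes, and rings mark an adjusted p under 0.05. Eftud2 intron 26 (3.86) and Dhx38 intron 8 (-3.58) stand apart from the rest, which scatter on both sides of 0.

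The intron called lower was intron 26 of *Eftud2*, counted in Eftud2-202 (GRCm39 chr11:102730084-102730245, minus strand, 162 nt, between coding exons). Its splicing efficiency was 1.00 and 0.995 in the controls, against 0.965 and 0.972 in the knockdown. The unsplit reads behind these values were 0 and 1 in the controls, against 10 and 5 in the knockdown, beside 325, 220, 277 and 171 split reads. All 10 in knockdown replicate 1 were at the 5′ junction, with 0 at the 3′ junction. In knockdown replicate 2 there were 2 at the 5′ and 3 at the 3′ junction. The log2 odds ratio was 3.86 (standard error 1.09, adjusted p = 0.0342 by edgeR). The call was lost with DESeq2 (adjusted p = 0.384), limma (adjusted p = 0.298), the 5′ junction alone (adjusted p = 0.254) and separate scaling (adjusted p = 0.0537) in edgeR, and without either control or without knockdown replicate 2, at edgeR adjusted p-values of 0.0535 to 0.664. Its neighbour, intron 27 (253 nt), went from 0.960 and 0.965 to 0.991 and 0.978, and intron 25 (450 nt) from 0.973 and 0.970 to 0.940 and 0.945. Neighbouring introns of *Eftud2* thus lay on opposite sides of the controls, neither of these 2 with an adjusted p under 0.05 by edgeR.

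The intron called higher was intron 8 of *Dhx38* (chr8:110285713-110286169, minus strand, 457 nt, between coding exons). It had a splicing efficiency of 0.923 and 0.936 in the controls, against 0.992 and 1.00 in the knockdown, from 14 and 11 unsplit reads against 2 and 0. The log2 odds ratio was -3.58 (standard error 0.926, adjusted p = 0.0159 by edgeR). The call was lost with DESeq2 (adjusted p = 0.223), limma (adjusted p = 0.288), on either junction alone and when any 1 of the 4 libraries was left out, at edgeR adjusted p-values of 0.0627 to 0.216. In the same gene, intron 26 (1290 nt) moved the other way, from 0.998 and 0.992 to 0.989 and 0.951, with an unadjusted p of 0.00451 and an adjusted p of 0.143 by edgeR.

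Other introns with the largest change in their gene did not pass the test. Intron 8 of *Prpf8* (chr11:75382460-75382584, 125 nt) rested on many reads, with 1900 to 2964 split and 87 to 190 unsplit reads per library. Its efficiency was 0.966 and 0.957 in the controls, against 0.931 and 0.931 in the knockdown, with the groups apart. The log2 odds ratio was 0.91, with an adjusted p of 0.120 by edgeR. Intron 11 of *Prpf6* (3480 nt) had 0.947 in both controls and 0.894 and 0.849 in the knockdown, with an adjusted p of 0.257 by edgeR. Introns 10, 16 and 17 of *Prpf6* also had unadjusted p-values under 0.05, each towards lower efficiency. In the helicase *Dhx16*, intron 3 (226 nt) had 0.933 and 0.959 against 0.848 and 0.853, with an adjusted p of 0.319 by edgeR. For *Snrnp200* intron 34, *Dhx8* intron 6 and *Dhx38* intron 3 both knockdown libraries were also lower, with adjusted p-values of 0.771, 0.622 and 0.718 by edgeR. Their unsplit reads, controls first, were few: 10, 4, 15 and 7 in *Snrnp200*, 4, 3, 5 and 9 in *Dhx8*, and 10, 13, 21 and 10 in *Dhx38*. A pick by largest change favours groups that lie apart, and 24.3% of all introns had both knockdown libraries lower. In *Prpf4* intron 13 and *Prpf3* intron 8 the libraries of the 2 groups overlapped. Split reads of *Prpf3* intron 8 at its 5′ junction were 276, 194, 282 and 184, controls first. At its 3′ junction they were 4, 7, 3 and 0. Its efficiency thus rests nearly all on split reads at the 5′ junction and cannot be read as removal of that intron.

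Nanopore reads gave a second, unreplicated view of the polyadenylated transcripts, as counts with 95% Wilson intervals that cover counting error only. *Prpf31* had 264 reads in the control and 133 in the knockdown, which is 85.7 CPM (76.0 to 96.7) and 70.9 CPM (59.9 to 84.1). The log2 ratio was -0.27, in the direction of the total RNA, with overlapping intervals. *Prpf3* had 104.5 CPM (93.7 to 116.6) and 88.0 CPM (75.6 to 102.5), a log2 ratio of -0.25. *Prpf8* had 253.9 CPM (236.7 to 272.3) and 287.0 CPM (263.7 to 312.2), a log2 ratio of 0.18. The remaining U5 and U4/U6 genes, *Snrnp200*, *Eftud2*, *Prpf6* and *Prpf4*, had log2 ratios between -0.12 and 0.17. The helicase gene *Dhx8* had the fewest reads, 65 and 49, and a log2 ratio of 0.31 with overlapping intervals.

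The 2 genes with intervals apart were helicases. The share of all genes with intervals apart was not counted, so no result about helicases is read from this. *Dhx16* had 590 and 523 reads, 191.5 CPM (176.7 to 207.6) in the control and 279.0 CPM (256.1 to 303.9) in the knockdown, a log2 ratio of 0.54. *Dhx38* had 95 and 91 reads, 30.8 CPM (25.2 to 37.7) and 48.5 CPM (39.5 to 59.6), a log2 ratio of 0.65. Their spliced reads in total RNA had log2 fold changes of 0.07 and -0.01, so this difference between the 2 long-read libraries had no counterpart of its size there. None of the 10 genes was past 2-fold, against 2.21% of 9611 genes that were at least 2-fold higher and 4.16% that were at least 2-fold lower. The relation of the long-read libraries to the total RNA samples is unclear, since the labels name a knockdown sample as starting material for both.

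**Figure D5:**
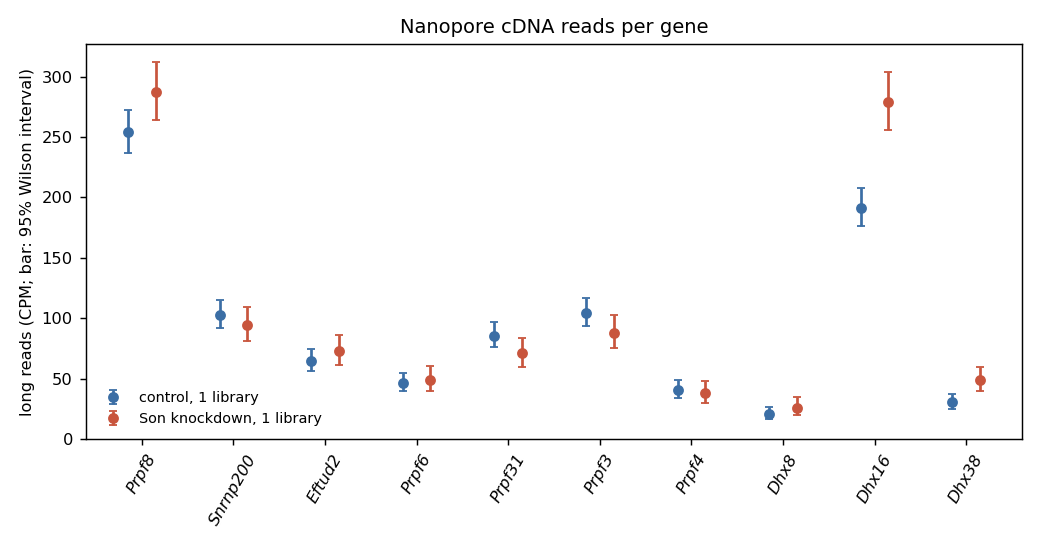
Nanopore cDNA reads of the 10 genes (CPM) in the control library (blue) and the *Son* knockdown library (red), 1 library each, with bars for 95% Wilson intervals. The intervals of *Dhx16* (191.5 against 279.0 CPM) and *Dhx38* (30.8 against 48.5 CPM) do not overlap, and those of *Prpf31* (85.7 against 70.9 CPM) do.

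By transcript, 50 of the 58 annotated models had a read and 21 had at least 20 over both libraries. Within *Prpf31*, the coding transcript Prpf31-201 had 200 and 89 reads (64.9 CPM, 47.5 CPM, log2 ratio -0.45) and the retained-intron model Prpf31-205 had 38 and 23 (log2 ratio 0.00). The retained-intron models of *Prpf31* held 14.8% of its reads in the control (11% to 19.6%) and 17.3% in the knockdown (11.8% to 24.6%). The most abundant transcript of *Prpf3*, Prpf3-201, had 270 and 123 reads (log2 ratio -0.41), and its retained-intron model Prpf3-204 had 13 and 14 (log2 ratio 0.82). In *Dhx16*, the coding Dhx16-201 (491 and 436 reads) and Dhx16-207, a model annotated for nonsense-mediated decay (57 and 52 reads), had log2 ratios of 0.55 and 0.59, so their ratios lay close together. The single transcript past 2-fold was Dhx16-204, a short coding model with 10 and 13 reads (log2 ratio 1.08), against 3.32% of 13807 transcripts at least 2-fold higher and 5.8% at least 2-fold lower. For *Prpf8*, *Eftud2*, *Prpf6*, *Prpf4*, *Dhx8* and *Dhx38* the most abundant transcripts, Prpf8-201, Eftud2-202, Prpf6-201, Prpf4-201, Dhx8-201 and Dhx38-201, had log2 ratios of 0.21, 0.12, -0.02, -0.10, 0.30 and 0.64.

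*Snrnp200* had the largest share of reads on retained-intron models among the 10 genes, 20.8% (16.7% to 25.6%) in the control and 26.6% (20.6% to 33.5%) in the knockdown. Nearly all came from Snrnp200-204, with 65 and 46 reads (log2 ratio 0.22), beside 250 and 130 for the coding Snrnp200-201 (log2 ratio -0.22). The intervals overlapped. In *Dhx16* the retained-intron share was 5.42% (3.87% to 7.56%) and 4.21% (2.79% to 6.29%), with 20 and 11 reads on Dhx16-208. Over all 10 genes 6.20% of long reads (5.38% to 7.13%) in the control and 6.38% (5.38% to 7.54%) in the knockdown fell on such models.
Long reads were counted per model, and whether they run through the retained introns was not examined. The introns retained by annotation in Snrnp200-204 and Dhx16-208 are printed, with capitals for the first and last bases, both of the common GT and AG form. They are intron 15 of *Snrnp200* (GRCm38 chr2:127221939-127222130, plus strand, 192 nt, 38.0% GC) and intron 14 of *Dhx16* (GRCm38 chr17:35887998-35888083, plus strand, 86 nt, 58.1% GC), both between coding exons.
Snrnp200 intron 15: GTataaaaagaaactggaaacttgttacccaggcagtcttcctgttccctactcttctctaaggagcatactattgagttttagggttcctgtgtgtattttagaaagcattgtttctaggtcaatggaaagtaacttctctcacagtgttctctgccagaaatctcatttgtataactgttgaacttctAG
Dhx16 intron 14: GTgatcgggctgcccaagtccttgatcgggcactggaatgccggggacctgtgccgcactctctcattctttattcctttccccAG
Neither intron is listed in the total RNA tables, so their splicing efficiency was not analysed here.

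Other genes of the same machinery were counted from a list of 57, of which 53 were tested. By edgeR, 5 of the 53 had fewer spliced reads in the knockdown and 0 had more, with 8 and 3 at an unadjusted p under 0.05, and DESeq2 also called 5 and 0. Over all genes the shares were the 6.76% and 1.96% given above. The called genes were the helicase genes *Ddx41* and *Ddx39b*, *Xab2* and *Bcas2* of the complex named after *Prpf19*, and the tri-snRNP gene *Sart1*, which is named after its values were seen. *Ddx41* went from 171 and 184 CPM to 102 and 109 CPM, *Ddx39b* from 221 and 213 to 162 and 143, *Xab2* from 183 and 199 to 141 and 132, and *Bcas2* from 193 and 180 to 139 and 133. *Sart1*, on 350 to 867 spliced reads per library, went from 55.7 and 63.8 to 51.0 and 33.8 CPM. Their log2 fold changes were -0.77, -0.53, -0.50, -0.48 and -0.50, a range that holds the -0.55 of *Prpf31*.

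Lower splicing efficiency passed the test in 2 of the 53 genes, against 6.98% of all genes. *Ddx41* had 0.919 and 0.920 in the controls, against 0.785 and 0.773 in the knockdown, a log2 odds ratio of 1.69 (standard error 0.236, adjusted p = 3.57e-10 by edgeR). *Xab2* had 0.962 and 0.956 against 0.906 and 0.895, a log2 odds ratio of 1.37 (standard error 0.240, adjusted p = 1.09e-06 by edgeR). With both columns of a library scaled alike, edgeR and DESeq2 called 0 genes of the list higher, with 0 at an unadjusted p under 0.05 in edgeR. Limma called 0 of all genes in either direction, so its 0 for the list carries no information. When split and unsplit reads were scaled separately, edgeR called 3 lower and 1 higher. The median log2 fold change of spliced reads over the list was -0.03. Of 23 tested genes in the U5, tri-snRNP and B complex group, the closest partners of the 10 genes, 1 had fewer spliced reads (*Sart1*) and 0 had a changed splicing efficiency by edgeR, with 1 lower at an unadjusted p under 0.05. Of 10 other helicase genes and their partners, 2 had fewer spliced reads and 1 had lower efficiency, and of 20 genes of the complex named after *Prpf19* and the catalytic steps, the counts were likewise 2 and 1.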

How the data were processed

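Total RNA tables from SPLICE-q, per the labels, give for each intron the counts of reads split or unsplit at its 5′ and 3′ junctions, and the splicing efficiency as a fraction; the authors deposited 1 table per library. The long-read tables deposited by the authors hold counts of Nanopore cDNA reads per transcript. Per the submitters' processing notes, the build was GRCm39 and SAMtools and minimap2 were used; versions, the aligner of the total RNA reads and the strand setting are not given in the sources used here. Listed introns had at least 10 reads at a junction, so genes or introns below that do not appear.

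Introns were reduced to 1 entry per position. Those listed in all 4 libraries (68322 of 85015), with at least 10 split and 10 unsplit reads in sum, were tested with edgeR 4.0.16 (quasi-likelihood, R 4.3.3): a split and an unsplit column per library, both junctions summed, with terms for library and for unsplit reads, and the knockdown effect on unsplit reads tested. A read across an intron counts at both junctions, so the sums overstate separate reads. Gene sums left out 681 introns listed under more than 1 gene. Spliced reads per gene used TMM and edgeR's expression filter. P-values were adjusted by Benjamini-Hochberg over all features, threshold 0.05. Long reads got a pseudocount of 0.5 reads, a minimum of 20 and no test. Gene names, intron numbers and sequences came from GENCODE M21 (GRCm38), matched by identifier; 101 of 12134 genes had no name there, and intron coordinates are those of the tables.

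On simulated counts, 14% of 2-fold and 90% of 4-fold changes were recovered among 62238 introns, 60% and 98% among 9302 genes, and 100% of 2-fold changes in spliced reads among 9471 genes. The changed features were drawn from well covered ones only, for splicing efficiency also with a neither very low nor very high unsplit share. The spread between libraries was assumed. Recovery for other features was not simulated. Alternatives were DESeq2 1.42.0, limma 3.58.1, single junctions, other scalings and filters, each library left out and a replicate block; introns with balanced split reads at both junctions were added after seeing the data. Introns named are those called and, per gene, the largest change in mean efficiency with at least 50 reads in every library; other introns are named as neighbours or for an unadjusted p, after their values were seen. Transcripts named are the most abundant, retained-intron or decay models with at least 20 reads and those past 2-fold; partner genes named are the up to 4 smallest p-values per direction. The genes, lists and rules were chosen with earlier results of these data known.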

Additional observations from a re-analysis of the deposited data

How the results depend on the processing

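The fall in spliced reads of *Prpf31* stayed past the threshold under every alternative tried, with adjusted p-values of 6.53e-12 to 0.0424 by the tools named. The number of called genes among the 10 was 1 to 3 when single libraries were left out: 3 without knockdown replicate 1 and 2 without knockdown replicate 2. For called introns of the 10 genes the main count of 2 became 0 on the 5′ junction alone, 0 on the 3′ junction alone, 0 with DESeq2, 0 with limma, 1 with separate scaling and 0 to 1 with single libraries left out. Over all introns the count of 1112 became 232, 322, 294 and 0 under the first 4 of these settings, and 171 to 1427 with single libraries left out. For the list of other spliceosome genes, the 2 called for splicing efficiency became 0 with limma, 4 with separate scaling (3 lower and 1 higher) and 2 to 3 with single libraries left out; the 5 called for spliced reads became 3 on the best covered intron and 4 to 16 with single libraries left out.

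The replicate numbers were not taken as pairs, since the labels give only a number. Deviations of same-numbered libraries had r = 0.0089 over introns and 0.036 over genes. This r cannot see a shift shared by all features. The median log2 odds ratio over all genes moved with the replicate left out. It was 0.014 without control replicate 1 and 0.18 without control replicate 2. It was 0.21 without knockdown replicate 1 and -0.019 without knockdown replicate 2. Over all genes, 1018 were called for splicing efficiency with a replicate block, against 666 without. With a replicate block, 2 of the 10 genes were called for splicing efficiency in place of 0, *Prpf6* (0.42, adjusted p = 0.0159 by edgeR) and *Prpf31* (0.67, adjusted p = 0.00113), and 4 other spliceosome genes in place of 2; the block gave 1626 introns in all, 3 of them in the 10 genes.

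Signs turned in values that were not called. For splicing efficiency, separate scaling gave log2 odds ratios of -0.11 for *Prpf8*, -0.016 for *Snrnp200* and -0.046 for *Eftud2*, and the 5′ junction alone gave -0.22 for *Prpf3* intron 8 and 0.045 for *Prpf4* intron 13. With single libraries left out the values ran from -0.15 to 0.21 for *Prpf8*, -0.042 to 0.28 for *Snrnp200*, -0.021 to 0.20 for *Eftud2*, -0.13 to 0.43 for *Prpf3*, -0.52 to 0.14 for *Prpf4*, -0.36 to 0.91 for *Prpf3* intron 8 and -1.10 to 0.081 for *Prpf4* intron 13. For spliced reads, the best covered intron gave 0.014 for *Prpf4* and 0.024 for *Dhx38*, and leaving out single libraries gave -0.024 to 0.090 for *Snrnp200* and -0.092 to 0.075 for *Dhx38*. Split reads of *Prpf3* intron 8 lay nearly all at its 5′ junction, as given above, so its values cannot be read as removal of that intron. The cause of these sign changes was not tested.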
